A study of Arabidopsis thaliana with 6 samples.

Results

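The transcripts described here are those of the chloroplast genome, taken as all rows of the expression table whose locus ID starts with ATCG. There were 132 such rows, each for a different locus, among 35986 rows in all. The table was made with Affymetrix arrays from germinated seeds of *Arabidopsis thaliana*, accession Col-0, at the stage of radicle protrusion. In 1 group, 3 arrays were made from seeds that were frozen without treatment. In the other, 3 arrays were made from seeds kept for 72 h in polyethylene glycol (PEG), which withholds water from the seed, at a water potential of -2.5 MPa. The seeds were wild type, and each array represents a pool of seeds harvested from several plants. The untreated seeds came from constant white light at 22 °C, while the incubation in PEG took place in the dark at 20 °C. Osmotic stress, darkness, time and temperature therefore cannot be told apart in this comparison, which asks how transcript levels differ once seeds that had lost desiccation tolerance (DT) were placed in conditions that bring it back.

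The chloroplast genome encodes core subunits of the photosystems, of the cytochrome b6f complex, of the ATP synthase and of the NDH complex, the large subunit of Rubisco, part of the plastid ribosome with its rRNAs and tRNAs, and the core of a bacterial-type RNA polymerase. Most other subunits of these complexes are encoded in the nucleus and imported. Plastid genes are read by the plastid-encoded polymerase, which needs nuclear sigma factors and associated proteins, and by phage-type polymerases from the nucleus, and the RNAs are commonly made as long precursors that cover several genes. In germinating seeds, the plastids of the embryo develop into green chloroplasts in the light. The reference annotation used here (RefSeq, TAIR10.1) lists 129 plastid genes, of which 85 are protein-coding, 37 encode tRNAs and 7 encode rRNAs. It lists them under other locus tags, however, and 0 of the 132 ATCG loci could be matched to it. Functional groups were therefore not formed, and the rows are described together, with 3 of them given by locus ID only.

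Among the 132 rows, 36 formed 18 pairs with identical values on all arrays, so that each pair is 1 measurement under 2 locus IDs, and the other 96 rows were unique. The rows thus hold 114 distinct measurements. Values are log2 expression values, and differences between the groups are given on the same log2 scale. The ATCG rows lay high on this scale, between 4.59 and 12.52, and 12.52 was also the highest value of the whole table. None of them fell under 4, the level below which values were treated as background, whereas 38.2 to 41.6 % of all rows did so on each array. Values of different rows come from different probes and do not rank the amounts of their RNAs. Array medians over all rows lay between 4.81 and 4.97. As a check of the labelled tissue, 8 genes known from maturing or germinating seeds were examined (3 cruciferins, 2 oleosins, isocitrate lyase, malate synthase and the expansin EXPA2). All 8 lay above 4 on all arrays after PEG and 6 on all untreated arrays, and 1 of the cruciferins, CRU2, was at background on all untreated arrays. The levels of several differed between the groups. The 2 oleosins had means of 4.39 and 4.19 in untreated seeds and 10.32 and 10.57 after PEG, while isocitrate lyase had 11.49 and 11.86. Of the 8, 4 rose at an adjusted p of 0.01 or less (limma), against 7.46 % of all rows tested.

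Chloroplast-encoded transcripts were slightly higher after 72 h in PEG by the median over their rows. At an adjusted p of 0.01 or less (limma), 10 of the 132 rows rose, or 7.58 %. This share was close to the 7.46 % of all rows tested and below the 12 % of nuclear rows above background on at least 3 arrays. In untreated seeds, the median over the 132 rows was 10.62 on replicate 1, 10.41 on replicate 2 and 10.55 on replicate 3. After PEG, it was 10.81 on replicate 1, 10.88 on replicate 2 and 10.87 on replicate 3. All PEG arrays thus lay above all untreated arrays, and replicate 2 was the lowest of the untreated ones. The mean of the array medians was 10.52 ± 0.11 (SD, n = 3) in untreated seeds and 10.86 ± 0.04 (SD, n = 3) after PEG. Row by row, the median difference between PEG and untreated seeds was 0.25, a fold of 1.19, with quartiles of 0.12 and 0.44, while over all rows of the table it was 0.00. The level after PEG was higher in 128 rows and lower in 4, and 108 rows differed by less than 0.5 in either direction. Over the 114 distinct measurements, the median difference was 0.27, with 111 higher and 3 lower. RNA was taken from whole seeds, so that more plastid RNA per cell and a larger share of cells rich in plastids cannot be told apart.

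**Figure D1:**
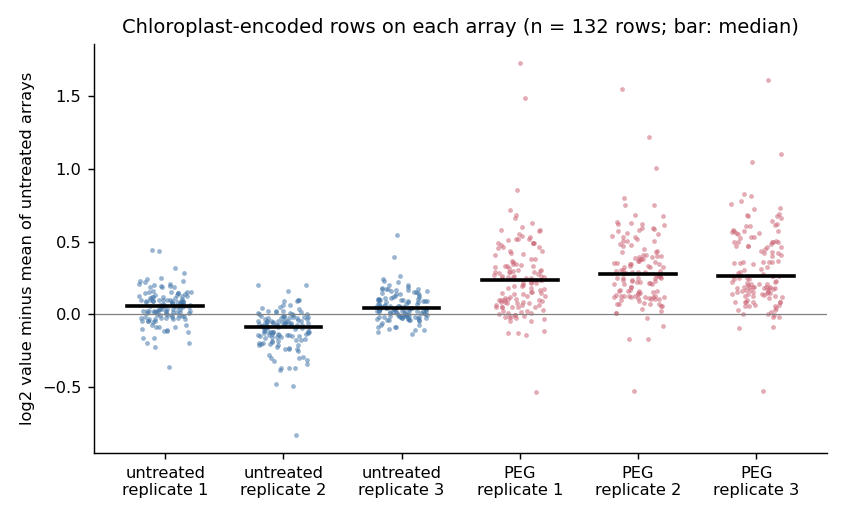
Log2 value of each of the 132 chloroplast-encoded rows on each array, minus the mean of that row over the 3 untreated arrays (y axis, log2 units); points are rows and black bars are medians. The points of all 3 PEG arrays are shifted upwards, and untreated replicate 2 lies under untreated replicates 1 and 3.

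The size of this shift depended on how the arrays were scaled against each other. With the arrays centred on the median of their nuclear rows, the median difference was 0.33 and 129 rows were higher. With quantile normalization of the deposited values, it was 0.12, with 98 rows higher and 34 lower. Each single PEG array lay above the untreated mean by a median of 0.24 (replicate 1), 0.28 (replicate 2) and 0.26 (replicate 3). Against single untreated arrays, the PEG mean was higher by a median of 0.18 (replicate 1), 0.38 (replicate 2) and 0.19 (replicate 3), so that the distance to untreated replicate 2 was the widest. Replicate 2 was the lowest untreated array in 97 of the 132 rows. Without it, the median difference was 0.18 and 127 rows were higher.

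Single rows were compared with limma, with p adjusted by Benjamini-Hochberg over all 35986 rows. At an adjusted p of 0.01 or less with a log2 difference of 2 or more, 0 of the 132 rows were called, compared with 2.75 % of all rows tested. At an unadjusted p under 0.05, limma put 69 of them past the limit, 68 higher and 1 lower, against 38.2 % of all rows tested. All rows tested include 12085 that lay at background on all 6 arrays and could not pass, whereas no chloroplast-encoded row was at background. A second reference is therefore given here, the 22210 nuclear rows above background on at least 3 arrays, which include rows kept because they were above it in 1 group alone. At an unadjusted p under 0.05 (limma), 61.2 % of these passed in either direction, more than the 52.3 % of the chloroplast-encoded rows. By direction, 6747 of the 22210 nuclear rows passed as higher and 6855 as lower, against 68 and 1 of the 132. At an adjusted p of 0.01 or less and any difference, 10 rows rose (7.58 % of the 132) and 1 fell. The background over all rows tested was 15.7 % in either direction, 7.46 % higher and 8.24 % lower, and that over the nuclear rows above background 12 % higher and 13.2 % lower. The share that rose was thus close to the former and below the latter, and 121 rows did not pass. At an adjusted p of 0.05 or less, 42 rows were higher (31.8 %, background 14.6 %, or 23.5 % of the nuclear rows above background) and 1 lower (background 15.3 %). With a trended and robust prior in limma, 54 rows rose at an adjusted p of 0.01, a share of 40.9 % against 15.3 % of all rows in that fit and 24.4 % of the nuclear rows above background. With rows at background left out of the fit, 22 rose, a share of 16.7 % against 22.2 % of all rows in that fit. Whether the chloroplast-encoded rows passed more or less often than other rows therefore changed with the fit and the limit.

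In 86 of the 132 rows, all PEG arrays lay above all untreated arrays, a share of 65.2 % against 20.8 % of all rows tested and 33.2 % of the nuclear rows above background. In 1 row, all PEG arrays lay below all untreated arrays, against 21.1 % of all rows tested and 34.0 % of the nuclear rows above background, and in 45 rows the groups overlapped. On the deposited scale, the shift was therefore small but seen on every PEG array in most rows. These counts were not repeated after quantile normalization, where 98 rows were higher. The rows share the same 6 arrays, so they are not independent of each other. The limma 95 % intervals describe what these arrays leave possible for each row. In 68 rows the interval lay above 0, in 1 row below it, and in 63 rows it held 0. In all 132 rows its lower bound lay above -1 on the log2 scale, the lowest being -0.71, and in 122 rows its upper bound also lay under 1. The former held for all 132 rows after quantile normalization too, with a lowest bound of -0.82, and after centring on the nuclear median. With the replicate number as a block in the model, the lowest bound was -0.99. These are separate intervals, not adjusted for the number of rows.

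**Figure D2:**
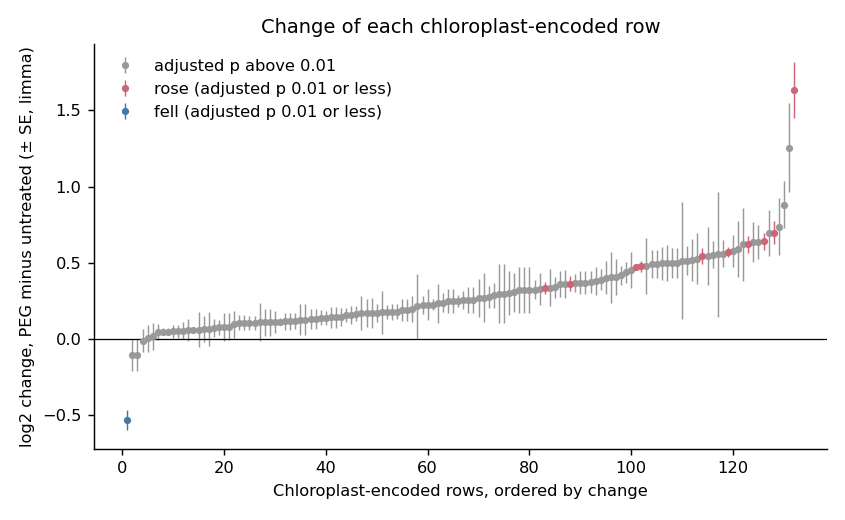
Log2 difference between PEG and untreated seeds for each of the 132 chloroplast-encoded rows, ordered by size (y axis, log2 units; points are limma estimates and bars their standard errors, 3 arrays per group). Most rows lie between 0 and 0.5, 10 rows rose and 1 fell at an adjusted p of 0.01 or less.

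The 10 rows that rose did so by 0.33 to 1.63 on the log2 scale, with a median of 0.56, and none of them belonged to a pair of identical rows. In all 10, the groups did not overlap, with PEG higher, against 65.2 % of the 132 rows and 20.8 % of all rows tested. Rows that pass this limit with 3 arrays per group are likely to be of this kind. ATCG00060 rose most. It had 7.04, 7.60 and 7.56 on the untreated arrays (replicates 1 to 3) and 9.13, 8.95 and 9.02 on the PEG arrays. The PEG values lay close together and far above the untreated ones, of which replicate 1 was the lowest. The means were 7.40 ± 0.31 and 9.03 ± 0.09 (SD, n = 3 each), a log2 difference of 1.63 (SE 0.18, limma adjusted p = 0.0052), or a fold of 3.10. It was the only row to pass with a difference of 1 or more, a limit reached by 10.2 % of all rows tested.
ATCG00620 rose next most, from 10.09, 9.84 and 10.02 in untreated seeds to 10.67, 10.74 and 10.65 after PEG. Here the lowest PEG array lay above the highest untreated array by more than the range of either group. The log2 difference was 0.70 (SE 0.08, limma adjusted p = 0.0050), or a fold of 1.62. A further row had the second largest difference of all, 1.25, but did not pass (SE 0.29, limma adjusted p = 0.038). Its untreated values of 6.25, 6.16 and 7.03 were spread widely, and its PEG values of 7.97, 7.70 and 7.53 were all higher.

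ATCG00100 was the 1 row that fell. It had 12.28, 12.13 and 12.38 on the untreated arrays and 11.73, 11.73 and 11.74 on the PEG arrays. The PEG values were nearly equal and all lay under the lowest untreated value. The log2 difference was -0.53 (SE 0.07, limma adjusted p = 0.0076), with a 95 % interval of -0.71 to -0.35. The 3 other rows with a lower level after PEG, 2 of which were a pair of identical rows, differed by -0.11 to -0.01 and did not pass. After centring on the medians of the nuclear rows, ATCG00100 had a difference of -0.45 and an adjusted p of 0.025 (limma), and ATCG00620 had 0.77 and an adjusted p of 0.0102.
Fewer rows passed with 1 array left out. The number that rose was 4 without untreated replicate 1, 5 without untreated replicate 2 and 4 without untreated replicate 3. It was 4 without PEG replicate 1, 2 without PEG replicate 2 and 4 without PEG replicate 3. Of these, 4, 3, 3, 3, 2 and 4, in the same order, were among the 10 rows, and 1 of the 10 passed in all 6 fits. No share of all rows is given for these fits, so a general loss of calls with fewer arrays cannot be told apart. In each of the 6 fits, all 10 rows remained higher after PEG, which had to be so, because their groups did not overlap on the full set of arrays. Among the 6 fits, ATCG00060 passed only without untreated replicate 1 (limma adjusted p = 0.0040, and 0.027 at most in the others). ATCG00620 and ATCG00100 passed only without untreated replicate 2 (limma adjusted p = 0.0067 and 0.0056, and 0.026 and 0.037 at most in the others).

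**Figure D3:**
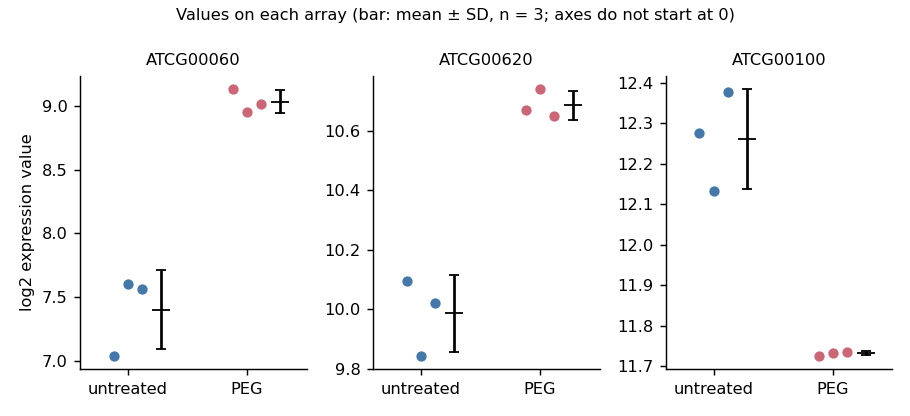
Log2 expression values of the 2 chloroplast-encoded rows with the largest rise among those that passed, ATCG00060 and ATCG00620, and of the row that fell, ATCG00100, on each of the 6 arrays (points; y axes in log2 units, not starting at 0), with the mean and SD of each group. The groups do not overlap in any of the 3 rows.

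The differences were larger, and the replicates more spread, in rows with lower values. Among the 114 distinct measurements, 25 had a mean under 10 over the 6 arrays. Their median difference was 0.51, and the median SD over the untreated arrays was 0.20. For the 46 measurements from 10 to 11, the median difference was 0.28 and the median untreated SD 0.10. For the 43 measurements of 11 or more, these values were 0.18 and 0.09. Groups did not overlap, with PEG higher, in 18 of the 25, 29 of the 46 and 28 of the 43. The shares were 20.8 % of all rows tested and 33.2 % of the nuclear rows above background, neither taken at matching levels. These are descriptions of the 3 ranges, and no test was made between them. Measurements near the top of the scale thus differed least, and the part of signal saturation in this order was not tested. Over all 132 rows, the median SD between replicates was 0.12 for untreated and 0.08 for PEG arrays. The widest untreated spread (SD 0.72) came from 1 row with 10.77, 9.51 and 10.73, in which replicate 2 stood apart. After PEG that row had 10.71, 10.93 and 11.03, and the groups overlapped.

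The mitochondrial genome, the other organelle genome on the array, did not share the shift. Of its 129 rows, 73 had a lower level in PEG and 53 a higher one. Their median difference was -0.11, with quartiles of -0.53 and 0.16. At an adjusted p of 0.01 or less, 3 rose (2.33 %) and 22 fell (17.1 %). Over all rows tested, these shares were 7.46 % and 8.24 %, and over the nuclear rows above background 12 % and 13.2 %. Mitochondrial rows with the same values were not merged in these counts. Among the 22210 nuclear rows above background on at least 3 arrays, 50.6 % were higher, and the quartiles of -0.56 and 0.51 were wider apart than those of the chloroplast-encoded rows. The difference between these sets and the chloroplast-encoded rows was not tested.

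Nuclear genes whose products work with those of the chloroplast genome were mostly lower after PEG. Of 79 such genes in 5 lists, 67 were lower and 10 higher, with a median difference of -0.58; 28 fell and 0 rose by limma at an adjusted p of 0.01 or less (at an unadjusted p under 0.05, 53 were lower and 2 higher), against 8.24 % of all rows tested that fell and 7.46 % that rose, or 13.2 % and 12 % of the nuclear rows above background. The number of lower genes was 66 with the arrays centred on the nuclear median and 67 after quantile normalization. With 1 array left out, 12 fell without untreated replicate 1, 11 without untreated replicate 2 and 8 without untreated replicate 3. Without PEG replicates 1, 2 and 3, the numbers were 8, 5 and 10. The shares above belong to the fit on all 6 arrays, and none is given for these smaller fits. The 6 counts therefore cannot be set against a background. The genes named below, apart from RBCS1A, have the largest fall of their list and were chosen after their values were seen.
Among 8 subunits of Rubisco, ATP synthase and the cytochrome b6f complex, all were lower and 4 fell. RBCS1B (AT5G38430), a small subunit of Rubisco, had 9.04, 7.99 and 8.95 in untreated seeds and lay at background on all PEG arrays. Its log2 difference to the background level of 4 was -4.66 (SE 0.32, limma adjusted p = 0.0017), which understates a fall to below that level. RBCS1A (AT1G67090), another small subunit, had 11.30 ± 0.18 and 11.14 ± 0.07 (SD, n = 3 each), a difference within the spread between replicates (limma adjusted p = 0.41). Of 17 nuclear NDH subunits, 13 were lower, 2 higher and 2 at background on all arrays, and 8 fell. Among the 8 was PnsB3 (AT3G16250), which went from 6.01 ± 0.31 (SD, n = 3) to background (limma adjusted p = 0.0027). In this list the median SD over the PEG arrays was 0, because many PEG values were set to 4. The p-values of such genes rest partly on that floor. The largest difference upwards was 0.80 and did not pass.
The proteins that sit on the plastid-encoded polymerase were lower in 13 of 13 genes, and 5 fell. FLN1 (AT3G54090), a fructokinase-like protein of this complex, had a mean of 8.73 ± 0.23 in untreated seeds and 7.14 ± 0.08 after PEG (SD, n = 3 each), and its log2 difference was -1.59 (SE 0.13, limma adjusted p = 0.0027). Of 6 sigma factors and 2 phage-type polymerases, 5 were lower and 3 higher, while 3 fell and 0 rose. The largest fall was that of SIG2 (AT1G08540), which fell by 1.06 on the log2 scale (SE 0.09, limma adjusted p = 0.0030). A phage-type polymerase had the largest difference upwards, 0.72, and did not pass (limma adjusted p = 0.053). Of 33 nuclear-encoded plastid ribosomal proteins, 28 were lower and 8 fell, with the largest fall in RPL12-A (AT3G27830), which fell by 1.57 on the log2 scale (SE 0.12, limma adjusted p = 0.0021). The chloroplast-encoded rows and these nuclear genes thus lay on opposite sides of 0 by their medians, 0.25 and -0.58, and this difference was not tested.

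**Figure D4:**
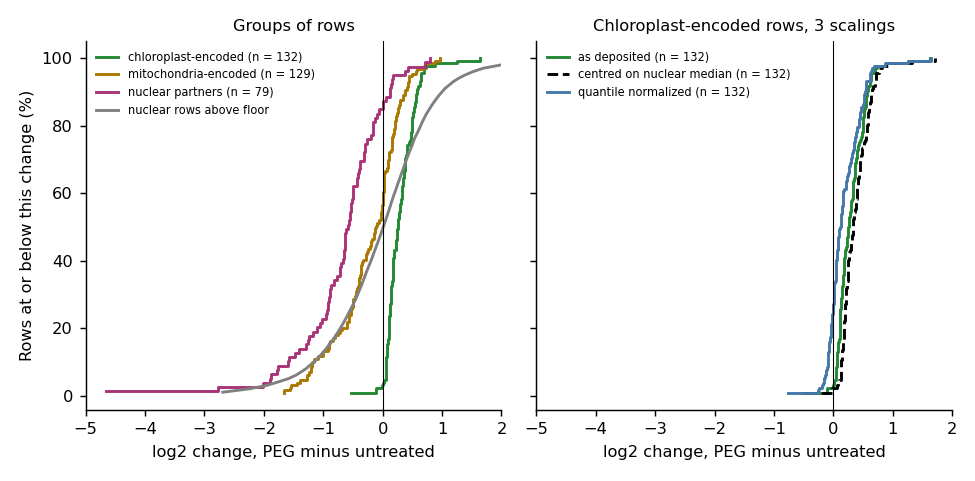
Cumulative share of rows (y axis, %) against the log2 difference between PEG and untreated seeds (x axis, log2 units). In the left panel, the curve of the 132 chloroplast-encoded rows is steep and lies almost wholly above 0, that of the 129 mitochondria-encoded rows crosses 0 and that of the 79 nuclear partner genes lies mostly below it; the grey curve is drawn through percentiles 1 to 99 of the nuclear rows above background on at least 3 arrays. The right panel shows the chloroplast-encoded rows as deposited, with arrays centred on the nuclear median, and after quantile normalization, where the curve crosses 0.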

How the data were processed

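Transcript levels of germinated seeds were measured with 1 Affymetrix array per sample, 3 untreated and 3 in PEG, from 50 ng of RNA each. The authors deposited log2 expression values per gene model, and the labels name RMA, which puts arrays on a common scale, as the processing tool. For the ABA arrays of the study, its methods state a custom probe definition for RMA, the floor of 4 and limits on p and fold. For the PEG arrays the probe definition is not given in the sources used here. Groups follow the sample titles. The rows were chosen, and the gene lists written, with earlier results of these data known.

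Values under 4 were set to 4. A linear model with group as its sole term was fitted to each of the 35986 rows in limma 3.58.1 (R 4.3.3; lmFit, then eBayes), and p-values were adjusted by Benjamini-Hochberg over all of them. The floor and the limits, p of 0.01 and a log2 difference of 2, were taken over from the methods for the ABA arrays, which name no adjustment of p. Here the limit was set on the adjusted p, with or without that on the difference. For nuclear genes, the feature with the highest mean was used, with symbols from RefSeq. The rule for named rows asked for gene symbols, which could not be paired with ATCG IDs, so the 2 largest rises and the 1 fall that passed are given by ID. The procedure was tested on simulated data. Precision is limited by the number of arrays: a two-sided exact permutation test with 3 per group reaches p = 0.1 at best. Alternatives were other floors, limits and scalings, a filter on low rows, another prior, the replicate block and leaving out arrays. No tests were made by functional group. Summaries used Python 3.11.15 and pandas 2.3.3.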

Additional observations from a re-analysis of the deposited data

How the results depend on the processing

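The median difference of the chloroplast-encoded rows stayed positive in all alternatives run, with 0.12 after quantile normalization as the lowest value and 0.18 to 0.29 with 1 array left out. The count of rising rows, 10 (7.58 %, against 12 % of the nuclear rows above background), was less firm, and the nuclear share moved too. It was 22 with rows at background left out (16.7 % against 22.4 %) and 54 with a trended and robust prior (40.9 % against 24.4 %). At an adjusted p of 0.05 it was 42 (31.8 % against 23.5 %). At an unadjusted p of 0.05, a limit added after the data were seen, it was 68. It was 6 without the floor and 2 to 5 with 1 array left out. Leaving out an array combined with the filter on low rows gave 6 to 14, a combination also added after the data were seen. No share of other rows is given for the fits without the floor or with an array left out. Of the 10 rows, 4 passed without the floor, 8 after quantile normalization, 7 after either centring and 10 with the trended prior. The 1 falling row was 0 without the floor and after either centring, 2 after quantile normalization, and 0 to 1 with 1 array left out, with or without the filter. At a fold limit of 1, 1 row was called, and with any array left out 0 were called at the limit of 2. The 28 falling nuclear partner genes became 20 with a floor of 5, 23 after either centring, 31 after quantile normalization and 36 without the floor. They became 44 with the filter on low rows, 48 with the trended prior, 47 at an adjusted p of 0.05 and 5 to 12 with 1 array left out. At an adjusted p of 0.05, 15.3 % of all rows were lower. For the other fits, the share of all rows that fell is not given here. The count of rising ones, 0, was 1 without the floor, after quantile normalization, after either centring and at an adjusted p of 0.05, 2 with the filter or the trended prior, and 0 with any array left out. With the replicate number as a block, 0 chloroplast-encoded rows rose, 0 fell and 0 partner genes fell, and the adjusted p was 0.060 for ATCG00060 and ATCG00620 and 0.056 for ATCG00100 (limma). Same-numbered arrays did not deviate together over all rows (correlations of -0.09, -0.02 and 0.04 for numbers 1, 2 and 3). Over the chloroplast-encoded rows, these correlations were -0.41, 0.18 and 0.02. The sample titles give a replicate number only, and such values cannot tell whether same-numbered samples share an origin. The medians by functional group were not run, as no table paired the rows with gene symbols. The cause of these shifts in counts was not tested.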
